A study of Gadus morhua with 47 samples.

Results

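A factorial of benzo[a]pyrene (BaP) and ethynylestradiol (EE2), each at 1 µM, was examined in liver slices of Atlantic cod (Gadus morhua). It consisted of the 16 of 47 libraries that came from the 4 fish with a slice in each of the 4 treatments. For each transcript and fish, the interaction was the log2 CPM (the count of mapped read segments scaled to library size) of the mixture, minus that of BaP, minus that of EE2, plus that of the vehicle. A value of 0 means that the changes made by the single compounds add up on the log2 scale, so that their fold changes multiply. A value above 0 means a higher level in the mixture than this, and a value below 0 a lower one. Interactions given with a standard error are the same contrast fitted to the counts by edgeR. They can differ from the mean of the per-fish values, in sign too.

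The study kept precision-cut slices of liver in culture, exposed them to the compounds and sequenced their messenger RNA. The 4 groups were slices with the solvent dimethyl sulfoxide (DMSO), slices with BaP at 1 µM, slices with EE2 at 1 µM, and slices with both compounds (Mix), each at 1 µM, with 4 slices per group. Fish 3 was a female of 425 g with a liver of 19 g, and fish 6 a female of 397 g with a liver of 16 g. Fish 4 was a male of 565 g with a liver of 70 g, and fish 5 a male of 394 g with a liver of 26 g. The replicates are different fish, and the 4 slices of one fish share the animal, so every comparison below was made within fish. A bulk slice holds all cell types of the liver, and fewer cells of a type and less RNA per cell cannot be told apart.

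BaP, a product of incomplete combustion, activates the aryl hydrocarbon receptor, which pairs with its partner ARNT and switches on genes of xenobiotic metabolism such as cytochrome P450 1A. EE2, the estrogen of contraceptive pills, activates estrogen receptors, which in the liver of egg-laying fish switch on genes for yolk and egg envelope proteins, in males too. Both receptors are known to influence each other's target genes in several vertebrates, and a factorial asks whether one compound changes the response to the other. The deposited identifiers could not be matched to gene names, so the transcripts are described by rank and coding length, no gene can be named, and the lists of receptor targets and of cell type markers could not be applied.

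The 16 libraries held 36.6 M to 67 M mapped segments (M, mega; median 47.5 M) and detected 17772 to 19355 transcripts. A count of 3 corresponded to 0.0448 to 0.082 CPM, depending on the library. The mean correlation of a library's deviation from its group mean with those of its own fish was 0.646 or more in all 16. The library farthest from its own fish in the whole series, the DMSO library of fish 2 with 0.101, lies outside the factorial.

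The liver slices responded to each compound. Averaged over the absence and presence of the other compound, BaP raised 19 and lowered 11 of 17179 transcripts tested, 0.111% and 0.064% of them. EE2 raised 171 and lowered 26, which is 0.995% and 0.151%. A transcript was called raised or lowered where the adjusted p of edgeR's quasi-likelihood test with Benjamini-Hochberg adjustment was under 0.05. None of the transcripts raised by BaP was called raised or lowered by EE2, and none of those raised by EE2 was called for BaP. With so few transcripts called for either compound, an overlap of 0 is near what the shares of called transcripts give. The mixture against DMSO raised 92 transcripts (0.536%) and lowered 17 (0.099%), a total of 109 that became 42 without fish 3, 191 without fish 4, 71 without fish 5 and 43 without fish 6. The counts of the average effects also depended on single fish, because the BaP total of 30 became 8 without fish 3, 8 without fish 5 and 7 without fish 6, and the EE2 total of 197 became 125 without fish 3 and 92 without fish 6. On the log scale, in this balanced design, the interaction contrast is orthogonal to both average effects, which choose the members. The members were called on counts, where the error depends on level and depth. There the choice is free of the interaction only approximately. The last transcript inside the BaP list had an adjusted p of 0.0411 (log2 change 0.62) and the first outside it 0.0542 (0.76), by edgeR's quasi-likelihood test. For EE2 the corresponding adjusted p-values from the same edgeR test were 0.0499 (log2 change 0.51) and 0.0502 (1.12).

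No departure from additivity passed the adjusted threshold. edgeR's quasi-likelihood test called 0 of 17179 interactions (0%), with a smallest adjusted p of 0.999. DESeq2 and limma voom called 0 as well. In edgeR 624 transcripts, 3.63% of those tested, had an unadjusted p under 0.05 for the interaction, of which 305 lay above and 319 below 0. DESeq2 gave 696 and limma voom 752. Each of these counts is below what a threshold of 0.05 gives among 17179 tests with no interaction. The tests were least informative where the error was large. The median standard error (SE) of the interaction was 0.23 log2 units, against 0.11 for each average effect. The balanced design sets this ratio, since an average effect is the mean of a compound's changes in both settings and the interaction their difference. For 11942 transcripts (69.5%) the 95% interval of the interaction lay within 1 log2 unit of 0, so that a 2-fold departure in either direction was outside the interval. For the other transcripts, with 4 fish, a departure of that size lay inside the interval or the interval could not be computed.

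Over all transcripts the interaction centred near 0. The scaling of the libraries holds the typical log2 ratio between them near 0, so this centre is largely set by the scaling. The median of the mean over 4 fish was -0.018, with 5% of transcripts under -0.63 and 5% over 0.60, and 8010 of 17179 (46.6%) lay above 0. In single fish the medians were -0.012 in fish 3, -0.014 in fish 4, -0.0026 in fish 5 and -0.031 in fish 6. The spread of single-fish values was wider, with a standard deviation (SD) over transcripts of 0.67, 0.92, 0.74 and 0.77 in that order, so fish 4 departed most. An interaction at or beyond 1 log2 unit was seen in 3096 transcripts (18%) in fish 4 and in 1861 to 2124 in the others, but in 566 (3.29%) after averaging the 4 fish.

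Over all transcripts the departures of different fish were nearly uncorrelated, and over those raised by EE2 weakly correlated. Across the 17179 transcripts, the correlation of the interaction between 2 fish ran from -0.078 to 0.084 over the 6 pairs (median -0.017). Over the 171 transcripts raised by EE2 it ran from 0.036 to 0.28 (median 0.14), above 0 in all 6 pairs, and over the 19 raised by BaP from -0.37 to 0.44 (median -0.066). Over all transcripts, for the average effect of EE2 it ran from 0.090 to 0.32 (median 0.22), and for that of BaP from 0.043 to 0.13 (median 0.092). These are correlations across transcripts that share libraries, with no test. An interaction of one sign in all 4 fish was found in 2099 transcripts (12.2%), 904 above and 1195 below 0. Random signs over 4 fish would give about this share. Of the sum of squares of log2 CPM over the 16 libraries, 70.9% lay between fish, 4.76% along EE2, 2.94% along BaP and 2.02% along the interaction. The residual took 19.4% over 9 degrees of freedom, or 2.16% for each, so the interaction took no more than 1 residual degree of freedom did. With a fish left out, the share along the interaction was 3.44% without fish 3, 2.61% without fish 4, 2.65% without fish 5 and 3.03% without fish 6. The total then has fewer degrees of freedom, so that each tends to take a larger share. These shares cannot be set against the 2.16%, which is for all 4 fish.

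**Figure D1:**
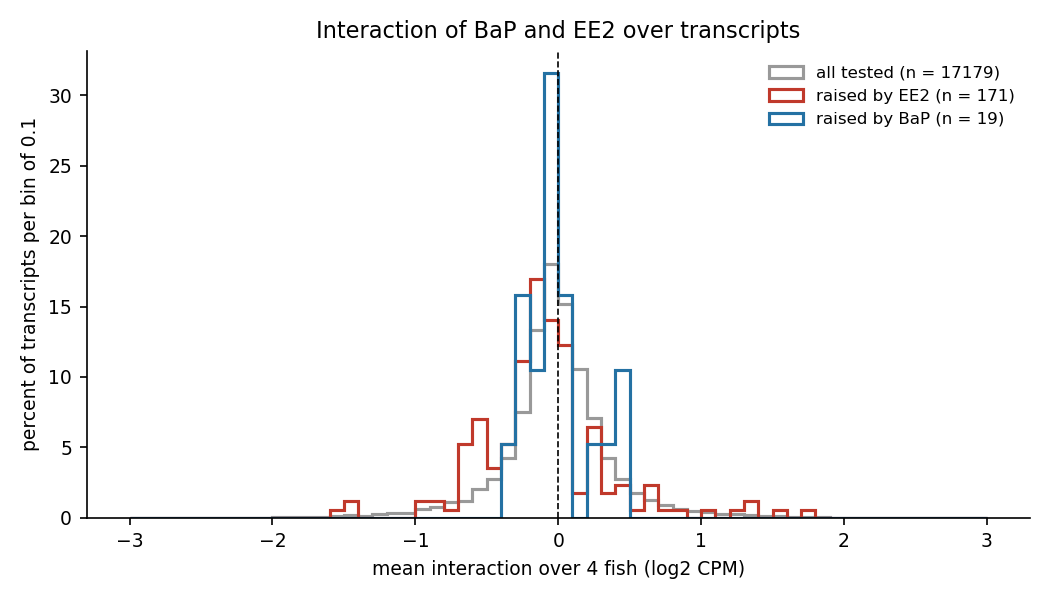
Distribution of the interaction, as the mean over 4 fish in log2 CPM (x axis), in percent of transcripts per bin of 0.1 (y axis), for all 17179 transcripts tested, the 171 raised by EE2 and the 19 raised by BaP. The distributions centre near 0, with medians of -0.018, -0.13 and -0.075. The first median is largely set by the scaling of the libraries.

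Averaged over 4 fish, the transcripts raised by BaP rose by about as much with EE2 present as without it, but single fish differed. The median rise of the 19 members was 1.10 log2 units over DMSO and 0.91 in the mixture over EE2 alone, and all 19 had a mean above 0 in each setting. In 18 of 19 the change was above 0 in every fish and setting. The median rise without and with EE2 was 1.34 and 0.62 in fish 3 and 1.065 and 1.635 in fish 4. It was 1.05 and 0.86 in fish 5 and 0.98 and 0.82 in fish 6. The median interaction was -0.075, with quartiles of -0.14 and 0.068 and a range from -0.32 to 0.44, and 7 members lay above and 12 below 0. By edgeR's quasi-likelihood test none of the 19 was called (0% of all transcripts were), and 0 had an unadjusted p under 0.05, against 3.63% of all transcripts. For 12 of 19 the 95% interval lay within 1 log2 unit of 0. The 9 members with an average rise of 1 log2 unit or more had a median interaction of 0.0024, and the 10 with a smaller rise one of -0.087. In 9 of these 10 the interval stayed within 1 log2 unit of 0, but in 3 of the 9 stronger ones. EE2 itself hardly moved these members, with a median change of -0.072 over DMSO and 0.029 in the mixture over BaP.

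The 19 members were chosen in these same slices for the mean of both rises. Rises above 0 are therefore largely set by that choice, and their likeness partly. The same holds for the separation of slices with and without BaP in the leading members described below. Across the 19 the rise without EE2 and the rise with EE2, which share no slice, correlated with r = 0.991. Against DMSO alone edgeR called 6 transcripts as raised by BaP (0.0349% of those tested), and in the mixture against EE2 it called 6 (0.0349%) as raised and 1 (0.00582%) as lowered. The same 6 members were called raised in both. The total of 7 in the mixture became 18 without fish 4. Of the 19 members, 4 stand beside another member in the deposited table.

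**Figure D2:**
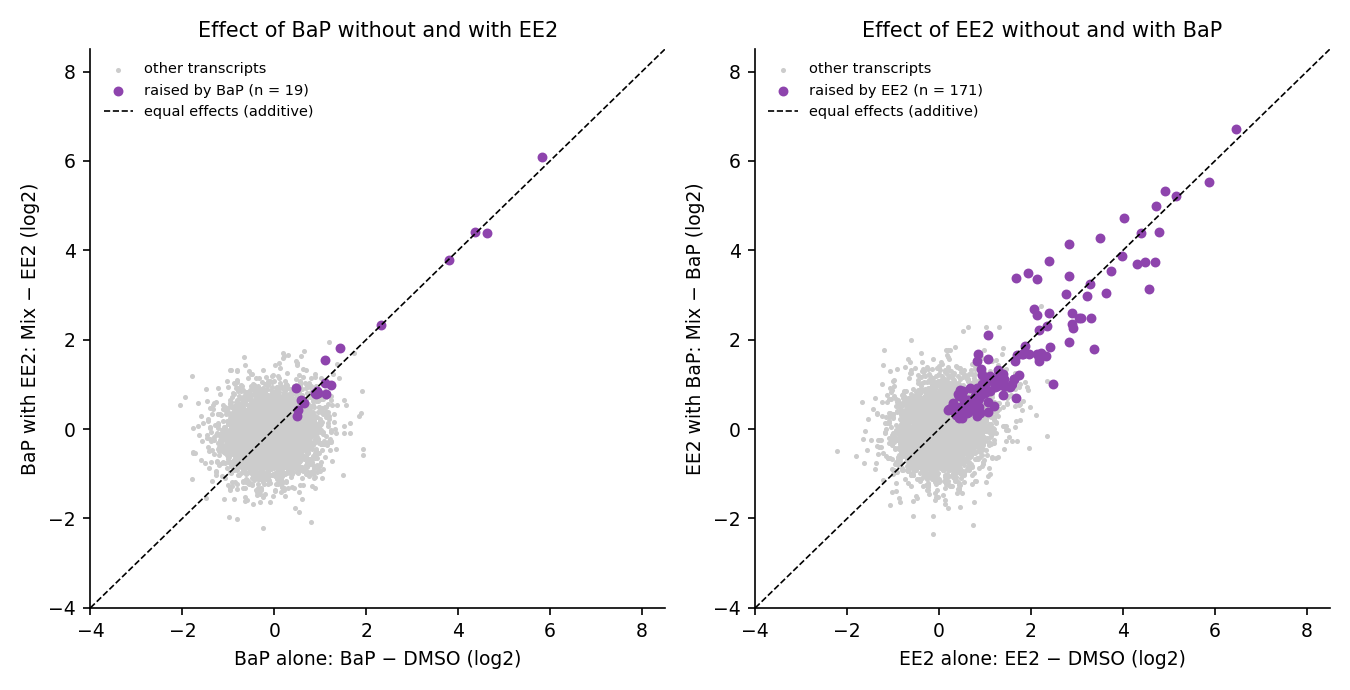
Mean log2 change over 4 fish made by a compound without the other compound (x axis) and with it (y axis), for BaP on the left and EE2 on the right; each point is a transcript, members are purple and the dashed line marks additivity. Members lie along the line, with median changes of 1.10 and 0.91 for BaP and of 0.94 and 0.87 for EE2.

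The member with the smallest p for BaP, a transcript of 2055 coding bases, had near-equal rises in both settings. Its level in fish 3, 4, 5 and 6 was 3.59, 1.92, 1.33 and 1.52 CPM with DMSO, and 3.44, 1.70, 1.13 and 1.53 CPM with EE2. With BaP it was 41.9, 29.8, 19.5 and 23.7 CPM, and with the mixture 28.6, 44.3, 15.1 and 20.4 CPM. Every slice with BaP lay above every slice without it, and fish 4 was the one fish with more in the mixture than with BaP. The fitted average rise was 3.82 ± 0.15 log2 units (SE), and the interaction was 0.019 ± 0.28 with a 95% interval from -0.58 to 0.62.

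The most abundant of the 5 leading members had 1560 coding bases and was the third by p. Its level was 71.6, 39.9, 32.4 and 30.5 CPM with DMSO in fish 3 to 6, and 101, 30.1, 52.6 and 28.1 CPM with EE2. It was 970, 1312, 605 and 1360 CPM with BaP and 731, 1638, 653 and 1097 CPM with the mixture. The groups with and without BaP did not overlap. The group means were 1062 ± 350 CPM with BaP and 1030 ± 450 CPM in the mixture (SD, n = 4). Within fish, the mixture differed from BaP by -0.41, 0.32, 0.11 and -0.31 log2 units in fish 3 to 6. The mean of these differences was -0.072, with an SD of 0.345. The interaction was -0.32 ± 0.49 log2 units (SE), with an interval from -1.35 to 0.72, and its values in fish 3 to 6 were -0.91, 0.73, -0.59 and -0.19.

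The largest rise with BaP belonged to ENSGMOT00000000897.1, a transcript of 1182 coding bases that was near-silent without BaP. It had 16 counts in the 4 DMSO slices together, 15 with EE2, 1609 with BaP and 1450 with the mixture. In fish 3 to 6 its level was 13.9, 4.08, 1.249 and 15.4 CPM with BaP, and 8.19, 8.16, 1.45 and 14.95 CPM with the mixture. Fish 5 had the lowest level in each. Since the level without BaP was at most 0.187 CPM, near the floor of 3 counts, its interaction was poorly determined, at 0.37 ± 0.83 log2 units (SE). The other 2 leading members, of 888 and 3087 coding bases, had interactions of 0.27 ± 0.71 and 0.11 ± 0.41. For all 5, the adjusted p of the interaction in edgeR's quasi-likelihood test was 0.999.

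**Figure D3:**
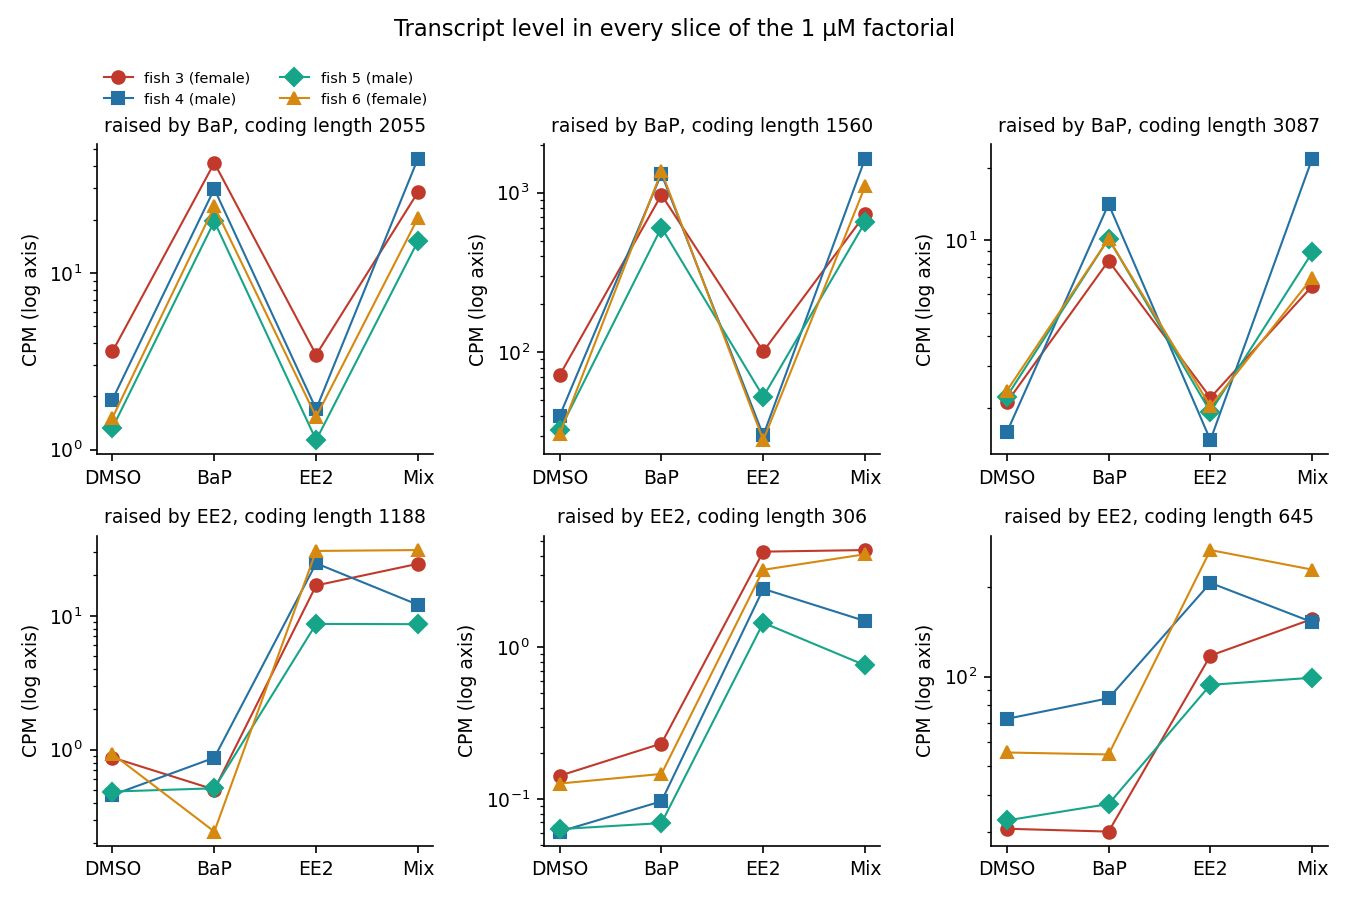
Level of 6 transcripts in CPM (y axis, log scale) in the DMSO, BaP, EE2 and Mix slices (x axis), with one line per fish; the upper row shows members raised by BaP and the lower row members raised by EE2. For the 2055-base transcript every slice with BaP lies between 15.1 and 44.3 CPM and every slice without it between 1.13 and 3.59 CPM.

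The transcripts raised by EE2 also rose with and without BaP, by slightly less with it in the median. The median rise of the 171 members was 0.94 log2 units over DMSO and 0.87 in the mixture over BaP alone, and all 171 had a mean above 0 in each setting. In 126 the change was above 0 in every fish and setting. The 171 were chosen in these same slices for the mean of both rises, so rises above 0 are largely set by that choice. The same holds for the separation of slices with and without EE2 in the leading members described below. The median interaction was -0.13, with quartiles of -0.31 and 0.041 and a range from -1.59 to 1.72, and 55 members lay above and 116 below 0. That is 32.2% above 0, against 46.6% of all transcripts. None of the 171 was called by edgeR's quasi-likelihood test (0% of all transcripts were), and 8 (4.68%) had an unadjusted p under 0.05, 2 above and 6 below 0, against 3.63% of all transcripts. The 95% interval lay within 1 log2 unit of 0 for 98 members, 58.3% of the 168 for which it could be computed.

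This lean below 0 was largest in fish 4 and did not hold without it. The median interaction of the 171 members was 0.14 in fish 3, -0.50 in fish 4, 0.0088 in fish 5 and -0.13 in fish 6, and without fish 4 the median of the mean was 0.018. In fish 4 the median rise with EE2 was 1.15 log2 units over DMSO and 0.73 in the mixture over BaP. In fish 6 it was 1.11 and 1.05, in fish 5 0.60 and 0.59, and in fish 3 0.85 and 1.07. The members raised by BaP went the other way in fish 4, with a median interaction of 0.43, against -0.39 in fish 3, -0.15 in fish 5 and -0.19 in fish 6. Without fish 4 their median became -0.17, and without fish 3 it became 0.028. The DMSO library of fish 4 was the shallowest of the 16, with 36.6 M mapped segments, and fish 4 had the largest liver. The part of either in these values was not tested.

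Taking the 190 transcripts raised by either compound as one group, the median interaction was -0.12, and 62 lay above and 128 below 0. Of these 190, 21 (11.1%) had one sign in all 4 fish, against 12.2% of all transcripts. The interval lay within 1 log2 unit of 0 for 110 of them.

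The error of the interaction was larger for strong and for low-level responses. The 82 members with an average EE2 rise of 1 log2 unit or more had a median interaction of -0.16 and a median SE of 0.58, and the interval stayed within 1 log2 unit of 0 for 14. The 89 with a smaller rise had a median of -0.12 and an SE of 0.21, and the interval stayed within that bound for 84 (94.4%). The 133 members with a mean level of 0 log2 CPM or more had a median interaction of -0.10, and for the 38 below this level it was -0.52. All 38 were also among the 82 with the stronger rise, so strength and low level are not separate here. In those 38 the fish differed most, with medians of 0.21, -1.31, -0.31 and 0.12 in fish 3 to 6, a median SE of 0.94 and no interval within 1 log2 unit of 0. For 5 of the 171 members no DMSO slice had a count, and for 3 none of the 8 slices without EE2 had one.

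The member with the smallest p for EE2 had 306 coding bases. In fish 3 to 6 its level was 0.142, 0.0610, 0.0633 and 0.126 CPM with DMSO and 0.232, 0.0965, 0.0694 and 0.146 CPM with BaP. It was 4.26, 2.42, 1.45 and 3.23 CPM with EE2 and 4.36, 1.49, 0.760 and 4.09 CPM with the mixture. Slices with and without EE2 did not overlap. The mixture was below EE2 alone in fish 4 and 5, near-equal to it in fish 3 and above it in fish 6. The per-fish interactions were -0.54, -1.12, -0.98 and 0.18 in fish 3 to 6. They rest on few counts without EE2: 8, 2, 3 and 6 with DMSO and 12, 4, 5 and 6 with BaP. In fish 3 the mixture differed from EE2 by 0.035 log2 units, so the -0.54 came from the slices without EE2. The fitted interaction was -0.72 ± 0.48 log2 units (SE), with an interval from -1.73 to 0.28.

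The second-ranked EE2 member, of 576 coding bases, was the one leading transcript with an unadjusted p under 0.05 for the interaction. With EE2 it reached 10.4, 2.40, 0.669 and 5.25 CPM in fish 3 to 6, and with the mixture 6.89, 1.46, 0.662 and 4.54 CPM. Without EE2 it stayed at or under 0.414 CPM in all 8 slices, with counts of 1 to 17. The interaction was -1.13 ± 0.50 log2 units (SE), with an interval from -2.19 to -0.079 and an unadjusted p of 0.0367, and the adjusted p in edgeR's quasi-likelihood test was 0.999. It was below 0 in 3 of 4 fish.

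The third-ranked member, of 1188 coding bases, differed in sign between fish. Its level was 0.871, 0.457, 0.485 and 0.927 CPM with DMSO, 0.502, 0.869, 0.513 and 0.244 CPM with BaP, 16.9, 24.7, 8.69 and 30.5 CPM with EE2, and 24.5, 12.1, 8.65 and 30.98 CPM with the mixture, in fish 3 to 6. Slices with EE2 lay above all slices without it, and fish 4 was the fish with a clearly lower level in the mixture than with EE2. The interactions were 1.28, -1.90, -0.081 and 1.79 in fish 3 to 6, and the fitted value was 0.18 ± 0.50 log2 units (SE). On the linear CPM scale its mean interaction was -0.98 ± 8.76 CPM (SD, n = 4), so even its sign depended on the scale.

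The largest rise with EE2 was that of ENSGMOT00000021937.1, of 930 coding bases, which had 0 counts in all 8 slices without EE2. With EE2 alone it had 15.6, 4.65, 1.24 and 1.87 CPM in fish 3 to 6, and with the mixture 13.2, 4.20, 2.35 and 2.54 CPM. Against a floor of 3 counts over the group, the level was at least 378-fold higher with EE2 than with DMSO and at least 387-fold higher with the mixture than with BaP. The sixth-ranked member, of 321 coding bases, was likewise without a count in these 8 slices. No interaction on the log scale can be estimated for such a transcript. For this reason the mixture was compared with EE2 alone: the log2 difference in edgeR's quasi-likelihood test was 0.21 ± 0.23 (SE) for the first, with an adjusted p of 0.999, and -0.30 ± 0.26 for the second, also with 0.999.

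The members that ranked seventh to ninth, of 645, 642 and 651 coding bases, were well expressed in all slices and changed alike from slice to slice, with the ninth at a higher level than the others. The authors' counting could have split reads between such transcripts, so their values are uncertain as separate ones. The seventh had 30.7, 72.0, 32.8 and 55.5 CPM with DMSO and 30.03, 84.5, 37.2 and 54.7 CPM with BaP in fish 3 to 6. It had 118, 207, 93.8 and 267 CPM with EE2 and 156, 153, 99.1 and 229 CPM with the mixture. The mixture was above EE2 alone in fish 3 and 5 and below it in fish 4 and 6. The rise with EE2 was 1.82 ± 0.18 log2 units without BaP and 1.70 ± 0.18 with it (SE), and the interaction was -0.12 ± 0.25, with an interval from -0.66 to 0.41. For this transcript a departure of 1 log2 unit was outside the interval in either direction. The fourth- and tenth-ranked members, of 957 and 4764 coding bases, had fitted interactions of 0.39 ± 0.67 and -0.55 ± 0.94 log2 units (SE). The means of their per-fish interactions were 0.42 and -0.0075.

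**Figure D4:**
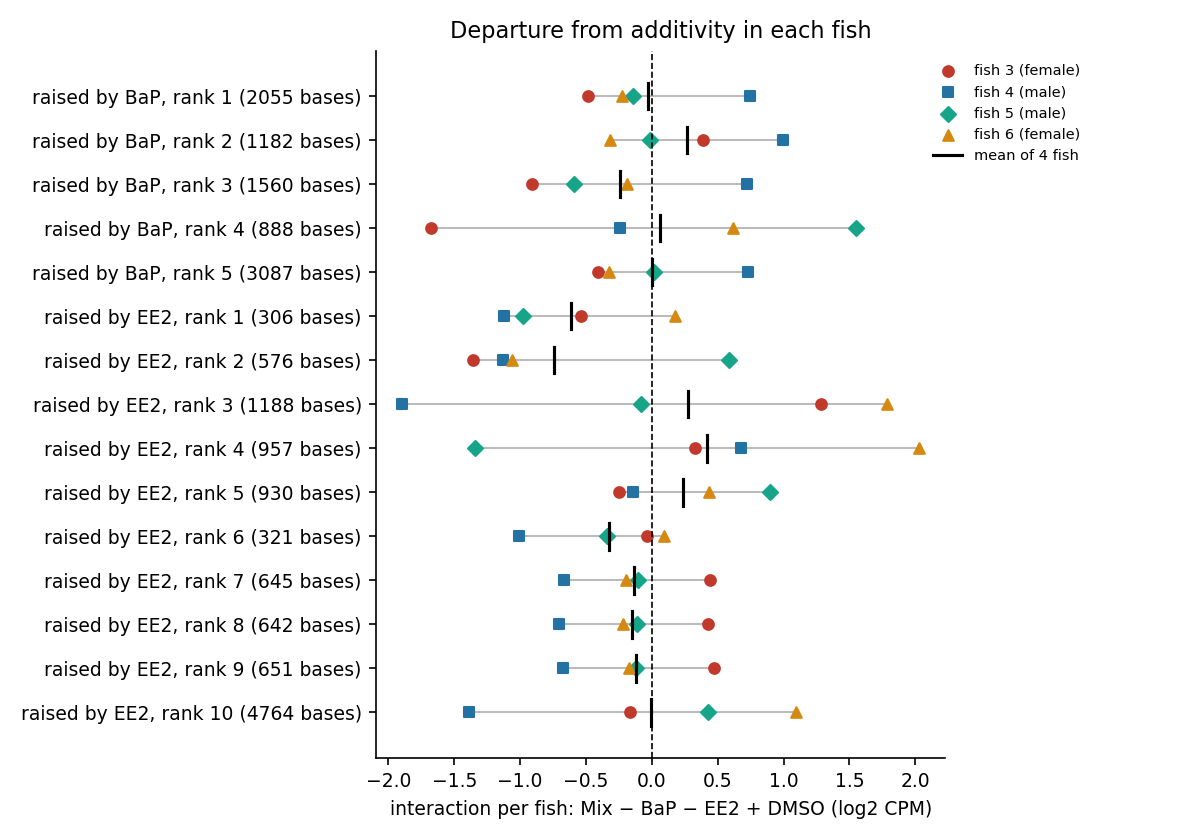
Interaction in log2 CPM (x axis) of the 5 leading members raised by BaP and the 10 leading members raised by EE2 (y axis, by rank and coding length); points are single fish and the black bar is their mean (for EE2 ranks 5 and 6, with no count without EE2, the value is Mix minus EE2). Fish differ in sign for every transcript shown, and fish 4 runs from 0.99 for the second BaP member to -1.90 for the third EE2 member.

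Called falls were fewer than called rises for EE2. For BaP the order depended on the setting: 11 fell and 19 rose, but 29 fell and 16 rose without fish 4, 70 and 40 with DESeq2, 32 and 24 with limma voom, and 25 and 21 without a filter. ENSGMOT00000003740.1, of 1848 coding bases, had the largest fall with BaP. It had 9.71, 0.884, 1.84 and 1.22 CPM with DMSO, 4.93, 0.290, 0.736 and 0.341 CPM with BaP, 8.25, 0.506, 1.76 and 0.150 CPM with EE2, and 2.104, 0.130, 0.466 and 0.294 CPM with the mixture, in fish 3 to 6. Fish 3 was highest in every group, so the groups overlap, and the comparison is within fish. The fitted average change was -1.45 ± 0.25 log2 units, and the fitted interaction -0.11 ± 0.50 (SE), with an interval from -1.18 to 0.96. The per-fish interactions in fish 3 to 6 were -0.98, -0.19, -0.56 and 2.54. Their mean of 0.20 was opposite in sign to the fitted value. Over the 11 members lowered by BaP the median interaction was -0.14, with 4 above and 7 below 0. One of them, of 522 coding bases, had an unadjusted p of 0.00248, an interaction of -0.66 ± 0.18 and the same sign in 4 of 4 fish, with an adjusted p of 0.999 in edgeR's quasi-likelihood test.

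The 26 members lowered by EE2 had a larger fall with BaP present in the median, at -0.63 log2 units, than without it, at -0.35. The median interaction was -0.16, with 4 above and 22 below 0. Medians in fish 3 to 6 were -0.23, -0.46, -0.11 and 0.071. None was called for the interaction by edgeR's quasi-likelihood test, 5 (19.2%) had an unadjusted p under 0.05, and these 5 lay below 0, 4 of them in every fish. The background of unadjusted p under 0.05 was 3.63% over all transcripts. The interval lay within 1 log2 unit of 0 for 24 of 26. ENSGMOT00000009051.1, of 939 coding bases, had the largest fall with EE2. It had 2.20, 4.12, 2.78 and 11.99 CPM with DMSO, 2.47, 3.72, 2.71 and 8.29 CPM with BaP, 2.05, 2.75, 1.23 and 2.95 CPM with EE2 and 0.918, 2.24, 1.67 and 6.49 CPM with the mixture. Its groups overlapped, and its interaction was 0.20 ± 0.37 log2 units (SE), below 0 in fish 3 and 4 and above 0 in fish 5 and 6.

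A pair of these members, of 990 and 984 coding bases, were also among the 3 transcripts with the smallest p for an interaction below 0. This ranking, and that above 0, took only transcripts with an average log2 CPM of 0 or more in edgeR. The 990-base transcript had 14.01, 18.1, 16.8 and 30.8 CPM with DMSO and 17.2, 26.1, 21.01 and 44.5 CPM with BaP in fish 3 to 6. It had 9.89, 17.6, 14.2 and 33.1 CPM with EE2 and 10.3, 14.3, 12.1 and 27.9 CPM with the mixture. In every fish BaP alone was above DMSO and the mixture below DMSO. The interaction was -0.60 ± 0.14 log2 units (SE, unadjusted p 0.000571), and that of the 984-base transcript -0.70 ± 0.17 (unadjusted p 0.00077). Each was below 0 in 4 of 4 fish, and each had an adjusted p of 0.999 in edgeR's quasi-likelihood test.

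In this ranking the smallest p below 0 belonged to a transcript of 1119 coding bases that neither compound moved on average. It had 5.96, 1.68, 3.63 and 9.16 CPM with DMSO, 9.86, 2.17, 4.65 and 13.6 CPM with BaP, 8.15, 2.51, 3.38 and 13.03 CPM with EE2, and 6.87, 1.41, 3.53 and 9.47 CPM with the mixture. BaP alone was above DMSO in every fish and EE2 alone in all but fish 5, while the mixture was below BaP alone in every fish. The interaction was -0.87 ± 0.20 log2 units (SE), with an interval from -1.29 to -0.45 and an unadjusted p of 0.000472, and its adjusted p was 0.999 in edgeR's quasi-likelihood test.

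Above 0, the smallest p in the same ranking was that of a transcript of 2268 coding bases. It had 2.72, 7.13, 6.54 and 4.99 CPM with DMSO, 2.34, 6.06, 4.95 and 2.19 CPM with BaP, 2.53, 4.91, 4.53 and 2.08 CPM with EE2, and 3.18, 6.94, 6.84 and 3.46 CPM with the mixture. Each compound alone was below DMSO in every fish, and the mixture was above both. The interaction was 1.05 ± 0.24 log2 units (SE, unadjusted p 0.000427), with the adjusted p at 0.999 in edgeR's quasi-likelihood test. The next 2 were long transcripts, of 12735 and 12150 coding bases, with near-identical profiles and interactions of 0.72 ± 0.18 and 0.73 ± 0.18, so reads could be shared between them. All 3 were above 0 in 4 of 4 fish. These 6 transcripts were picked for the smallest p in either direction among the tested transcripts with an average log2 CPM of 0 or more. Their values therefore describe the extremes of that part.

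The median interaction of the EE2 members moved with how they were chosen, and that of the BaP members moved less. Against DMSO edgeR called 82 transcripts (0.477%) as raised by EE2 and 2 (0.0116%) as lowered, a total of 84 that became 33 without fish 6. In the mixture against BaP it called 65 (0.378%) as raised and 9 (0.0524%) as lowered, a total of 74 that became 33 without fish 3 and 34 without fish 6. The 82 had a median interaction of -0.23 and the 65 one of -0.033; each of these choices uses slices that enter the interaction with opposite sign, so the difference between them is partly set by the choice. Members were also chosen in fish 1, 2, 7 and 8, which share no slice with the factorial, from their 13 libraries with DMSO, BaP 1 µM, EE2 10 nM or EE2 1 µM. The mean of both EE2 doses against DMSO raised 16 transcripts there, and 14 of the 16 (87.5%) were among the 171. Their median interaction was 0.52, with 12 above and 4 below 0 and medians of 1.12, -0.62, 0.83 and 0.34 in fish 3 to 6, and 3 intervals lay within 1 log2 unit of 0. Several of the 13 libraries used for the choice correlated less with their own fish than the factorial's lowest value of 0.646. In fish 2 the mean correlation was 0.101 with DMSO, 0.408 with BaP 1 µM and 0.471 with EE2 10 nM. It was 0.515 with DMSO in fish 1 and 0.555 with BaP 1 µM in fish 7. The part of these libraries in the choice was not tested. For BaP, the 6 transcripts chosen against DMSO, which were the same as those chosen in the mixture, had a median of 0.032. The 5 with the smallest p in the other fish, of which 1 was called there, had 0.062. All 5 were among these 6 and among the 19. The BaP choices are thus nested, and the likeness of their medians is partly set by that overlap.

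**Figure D5:**
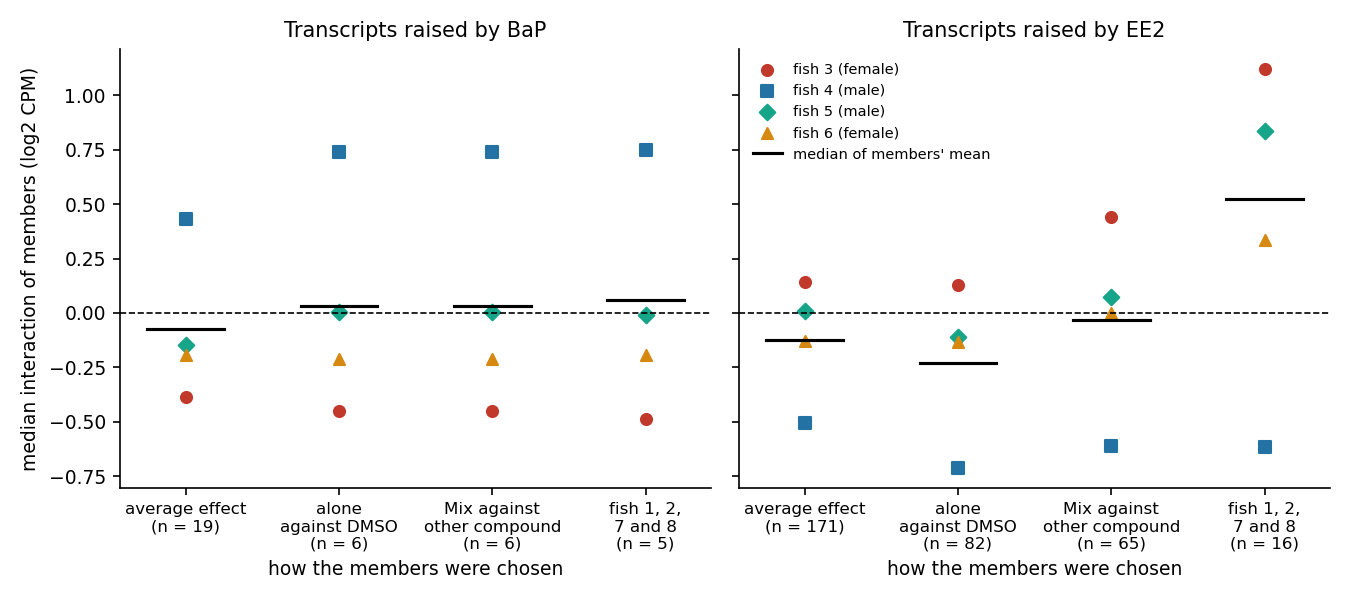
Median interaction of the members in log2 CPM (y axis) in each fish (points) and of the members' mean over 4 fish (bars), for 4 ways of choosing the members (x axis), with BaP on the left and EE2 on the right. Fish 4 is the highest fish in every BaP choice and the lowest in every EE2 choice, and the EE2 median runs from -0.23 to 0.52. The BaP choices are nested, with the 5 of the last among the 6 and these among the 19, and the EE2 choices also share members.

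The same slices of fish 4 and 6 with DMSO also served a factorial at 10 nM, for which fish 2, 4, 6 and 8 had all treatments. For the 171 EE2 members the median interaction at 10 nM was -0.54 in fish 2, 0.16 in fish 4, 0.028 in fish 6 and 0.15 in fish 8. Fish 4, with the same DMSO slice, was thus below 0 at 1 µM and above 0 at 10 nM. The mean correlation of a library with its own fish was 0.646 or more in the 1 µM factorial. In the 10 nM factorial all libraries of fish 2 were lower, at 0.101 with DMSO, 0.525 with BaP, 0.471 with EE2 and 0.462 with the mixture. In fish 6 the BaP 10 nM library was lower, at 0.401. For the 19 BaP members the median interactions at 10 nM were -0.26, 0.012, 0.65 and -0.14 in fish 2, 4, 6 and 8. The median change of these 19 with BaP alone at 10 nM against DMSO was 0.81, 0.74, -0.29 and 0.15 log2 units in that order. The 0.65 thus belongs to fish 6, in which 10 nM BaP alone did not raise these members in the median. The doses differ, so the values stand side by side without a test.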

How the data were processed

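The deposited tables hold, for 22100 Ensembl cod transcripts, whole-number counts of mapped read segments that the authors did not normalize, as the values show. Per the submitters' processing notes, FastQC 0.11.5, HISAT2 2.1.0 and SAMtools 1.4.1 were used (not given in the sources used here: the build and the aligner options). The tables look like counts of segments, in which each mate of a pair counts and secondary alignments may be included, and near-identical transcripts may share reads. Segments on no transcript, 43.3% to 49.7% of a library, were left out, as were unmapped mates of mapped segments (10% to 11.5%). Standard errors of fitted values are the log2 change divided by the square root of the F of edgeR's quasi-likelihood test. Intervals are at 95% and were built from these. For the interaction of the 306-base EE2 member, the unadjusted p of that test, 0.209, was larger than its standard error implies. Some intervals may therefore be too narrow, and the counts of intervals within 1 log2 unit of 0 rest on them.

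Counts of the 16 libraries were fitted in edgeR 4.0.16 (R 4.3.3; quasi-likelihood F test, TMM factors, treatment group and fish as terms). The default expression filter (minimum count 10, minimum total 15) kept 17179 transcripts. Adjusted p-values are Benjamini-Hochberg values over all of them, with a threshold of 0.05. Log2 CPM used a prior count of 2, and CPM values are scaled by TMM factors. Scripts were tested on simulated data. DESeq2 1.42.0, limma 3.58.1 (voom), other scalings, filters, prior counts, the fit without fish, all 47 libraries and each fish left out were alternatives. With 4 fish an exact sign-flip test cannot give a p under 0.125.

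The replicate number is the fish, shown by the same sex and weights in every treatment. Deviations from the group means correlated at 0.711 on average between libraries of one fish (lowest 0.613) and at -0.259 between fish, so fish was kept as a block. Taking off the mean of 4 fish by itself pushes the value between fish below 0. No identifier matched the 33114 names of gadMor3.0, and no sequences are shown. The members and lists were chosen with earlier results of these data known. The transcripts described include the 5 raised by BaP and 10 raised by EE2 with the smallest p. They also include the 3 with the smallest p for the interaction in each direction. The largest called rise and fall with each compound are given with identifiers. For the interaction ranking and for these rises and falls, edgeR's average log2 CPM had to be 0 or more. That average is fitted to the counts and is not a mean of log2 values. The rises and falls also needed one sign in 4 fish. The 522-base transcript falls outside these rules and was chosen after its values were seen.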

Additional observations from a re-analysis of the deposited data

Results flagged for a closer look

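Of 26 results examined, the interactions of 23 single transcripts and 3 group medians, 1 held a fish far from the other 3. For the second-ranked transcript raised by EE2, of 576 coding bases, the interaction was 0.584 log2 units in fish 5 and -1.36, -1.13 and -1.07 in fish 3, 4 and 6. The gap to the nearest fish was 0.848 of the whole range, above the critical value for 4 samples; chance gives about 1 such case in 20. In fish 5 this transcript had 0.0422 CPM with DMSO and 0.0139 CPM with BaP, which is under the CPM that 3 counts correspond to.

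In 2 of the 26 the females and the males went opposite ways, with 2 fish of each sex, and the difference was not tested. Random signs over 4 fish would give such a split in a share of results no smaller than this. For the fifth-ranked transcript raised by BaP, of 3087 coding bases, the interaction was -0.41 and -0.33 in the females, fish 3 and 6, and 0.73 and 0.017 in the males, fish 4 and 5. The mean of the females minus that of the males was -0.742. For the third-ranked transcript raised by EE2, of 1188 coding bases, it was 1.28 and 1.79 in the females and -1.90 and -0.081 in the males, a difference of 2.52.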

How the results depend on the processing

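The count of 0 interactions held under each of the 11 alternatives run, with 39 transcripts at an unadjusted p under 0.05 with no replicate block (fish left out of the model) and 440 to 752 in the others. The counts for the compounds moved more. With no replicate block the totals were 6 for the BaP average effect (30 with it), 27 for EE2 (197), 2 for EE2 against DMSO (84), 6 for Mix against DMSO (109) and 2 for Mix against BaP (74), and the block changed no other total by over 1.5 times. DESeq2 called 110 and 376 for the averages (40 raised and 70 lowered by BaP), 33, 150 and 219 for BaP, EE2 and Mix against DMSO, 35 for Mix against EE2 (7 in the main analysis) and 164 for Mix against BaP. limma voom called 56 for the BaP average (24 raised, 32 lowered) and 18 for Mix against EE2. All 47 libraries gave 17 and 127 for the averages and 12 for BaP against DMSO (6). Without a filter the BaP average gave 46 (21 raised, 25 lowered) and Mix against EE2 11. The cause of these differences was not tested. Leaving out a fish gave totals of 7 to 45 for the BaP average, 92 to 206 for the EE2 average, 33 to 72 for EE2 against DMSO, 42 to 191 for Mix against DMSO, 6 to 18 for Mix against EE2 and 33 to 78 for Mix against BaP. The interaction's share of the sum of squares ran from 2.61% to 3.44% with a fish left out (2.02% with all fish). With a fish left out the total has fewer degrees of freedom. The median of the EE2 members was 0.52 when they were chosen in other fish, and that of all transcripts -0.0041 without TMM factors. Of 37 medians and shares under alternatives 31 moved by less than their spread. So did all 184 values of the 23 single transcripts on the log2 scale, where the spread was the SD over the 4 fish. Leaving out a fish cannot move a mean of 4 fish by that much, so those values could not have come out as moved. On the linear CPM scale, in another unit, 17 of the 23 had the same sign and 6 the opposite one. With 4 fish many intervals reached a 2-fold interaction, and none of the 38 EE2-raised members with a mean level under 0 log2 CPM had an interval inside it.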
